A study of Mus musculus with 2 samples.

Results

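Keratinocyte identity transcription factors are described here across the cells of 2 mouse single-cell RNA libraries. The group holds 9 genes, listed by name and found by NCBI gene identifier among the 36528 identifiers of the count tables: Trp63, Klf4, Klf5, Grhl3, Ovol1, Tfap2a, Tfap2c, Gata3 and Zfp750. All 9 were present in both tables. The rule that lists them uses no measured value, but they were chosen with earlier results of these data known. The study set epidermal cells with a deletion of Bap1 against cells with the gene intact. The product of Bap1 is a deubiquitinase of the nucleus that acts on histone H2A. The library labelled knockout (KO) came from a pool of 9 neonates of the genotype Bap1fl/fl Rosa26-CreERT2, and the library labelled wild type (WT) from a pool of 11 neonates with Rosa26-CreERT2 alone. Both pools were C57BL/6 mice at postnatal day 1. Rosa26 is active in nearly all cell types, so CreERT2, the recombinase that tamoxifen switches on, was not limited to keratinocytes. Both cultures received 100 nM 4-OHT (4-hydroxytamoxifen) for 4 days and grew for 3 more days in M254 medium with a growth supplement made for human melanocytes, so controls share the recombinase, the drug and the medium. Each pool gave 1 library, a number that leaves no spread between replicates. No test was made, and every difference is one between these 2 libraries, whose values are given as under KO and under WT.

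The epidermis renews from a basal layer whose cells stop dividing, move up and cornify. The p63 protein, encoded by Trp63, is required for the basal layer to form and binds many enhancers that keratinocytes use. AP-2 alpha and AP-2 gamma (Tfap2a, Tfap2c) act with p63 in the commitment of ectoderm to epidermis. Klf4, Grhl3, Ovol1 and Zfp750 are known for roles in differentiation and barrier formation, while Klf5 is known from proliferating epithelial cells and Gata3 from hair follicle lineages and barrier lipids.

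The files held 64954113 unique molecular identifiers (UMIs, one per captured RNA molecule) in 1760 cells of the library labelled knockout, and 77579465 in 1926 cells of the library labelled wild type. Median depth was 33585 UMIs per cell under KO and 37223 under WT. Only 3 cell barcodes occurred in both libraries. Bap1 RNA went against the labels, with 19.8 CPM (UMIs of a gene scaled to a fixed total of all UMIs in the cells summed) in all cells kept under KO and 14.1 CPM under WT. That is a log2 ratio of 0.50 (95% interval 0.38 to 0.61). The kit counts tags near the 3′ end, and which exons the deletion takes out is not stated in the labels; tags from outside them are no check of it. Every direction below therefore rests on the labels. Intervals of levels and ratios cover counting error only, and those of cell shares cover only the draw of cells within a library.

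The 5 keratin-rich clusters, numbered 0 to 4, were read together as the epithelial cells of the culture. They held 1598 cells (91.9%) under KO and 1753 (91.7%) under WT. The basal keratin gene Krt14 was at 4597 CPM under KO and 5736 CPM under WT. The early differentiation keratin Krt1 was nearly absent, at 0.257 CPM under KO and 0.256 CPM under WT. Early differentiation genes differed in this, and Dsg1a, Dsc1 and Calml3 were lower than Krt1 in both libraries. Krt10 was at 30.04 CPM under KO and 30.71 CPM under WT, and Sbsn at 50.23 CPM under KO and 47.22 CPM under WT. Dmkn was at 81.51 CPM under KO and 103.01 CPM under WT. No member was among the variable genes that built the clusters. Clusters are described by leading genes, which are no cell type names. Cluster 0 led with Wfdc18 and Ccl20, and cluster 1 with Uts2b and the smooth muscle actin Acta2. Of 8 listed contractile markers, only 2, Acta2 and Cnn1, were at least 5-fold over the mean of the other clusters in cluster 1. It is called contractile below for these 2 genes. Cluster 2 led with Obp2a and the stress-induced gene Nupr1. Of 9 listed stress markers, only 3 were at least 5-fold over the mean of the other clusters there: Nupr1, Gdf15 and Gas6. Cluster 3 led with the cornified envelope genes Sprr1a and Cnfn, and cluster 4 with the mitotic genes Ube2c and Cenpa. The makeup differed strongly between the libraries. Cluster 2 held 717 of the 1598 keratin-rich cells (44.9%) under KO against 20 of 1753 (1.14%) under WT. Cluster 0 held 192 (12.0%) under KO and 847 (48.3%) under WT, and the mitotic cluster 4 held 19 (1.19%) under KO and 145 (8.27%) under WT. Because sums over all keratin-rich cells mix these states, each member is also given cluster by cluster.

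Before the levels, the promoters of 3 members show the sequence at genes that differed in direction: Gata3 and Grhl3, which were lower under KO, and Klf4, which was not. Each runs from 250 bases before to 50 bases after the RefSeq start in GRCm38.p6, all on the minus strand. Gata3 is chr2:9878551-9878850, Klf4 is chr4:55532426-55532725 and Grhl3 is chr4:135573583-135573882. The Gata3 region lies inside the span of its gene, 9857078 to 9887953, and not at the upstream end. Its matches describe that start only. Capitals mark exact matches on either strand to the AP-2 motif GCCNNNGGC or to the Krüppel-like factor (KLF) motif GGGCGGGG, whose other strand reads CCCCGCCC.
Gata3: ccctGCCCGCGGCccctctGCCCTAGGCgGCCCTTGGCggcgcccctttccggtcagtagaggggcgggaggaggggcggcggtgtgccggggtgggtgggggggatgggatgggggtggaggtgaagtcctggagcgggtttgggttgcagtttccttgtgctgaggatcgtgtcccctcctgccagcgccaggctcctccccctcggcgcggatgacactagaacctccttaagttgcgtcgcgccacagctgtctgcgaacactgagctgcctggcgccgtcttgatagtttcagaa
Klf4: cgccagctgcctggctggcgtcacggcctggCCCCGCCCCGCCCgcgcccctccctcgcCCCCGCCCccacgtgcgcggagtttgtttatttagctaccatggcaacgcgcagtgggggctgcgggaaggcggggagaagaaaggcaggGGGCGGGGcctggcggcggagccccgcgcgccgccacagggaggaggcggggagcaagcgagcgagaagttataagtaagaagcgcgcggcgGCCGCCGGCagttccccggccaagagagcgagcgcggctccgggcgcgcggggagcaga
Grhl3: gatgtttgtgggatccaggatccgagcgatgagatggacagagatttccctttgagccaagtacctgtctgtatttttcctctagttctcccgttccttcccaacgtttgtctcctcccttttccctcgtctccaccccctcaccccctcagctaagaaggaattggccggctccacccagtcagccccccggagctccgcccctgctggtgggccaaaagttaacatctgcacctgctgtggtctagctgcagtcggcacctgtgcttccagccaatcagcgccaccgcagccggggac
Gata3 held 3 AP-2 matches, at positions -246, -231 and -221 from the start. Klf4 held 1 AP-2 match at -9 and 4 KLF matches at -219, -214, -191 and -101, of which the first pair overlap. Grhl3 held no match to any of the 7 motifs searched. Over all 32851 promoters of the same length, 16.6% held the AP-2 motif and 17.6% held GGGCGGGG. The other 5 motifs had no match in any member promoter. Of these, a second KLF motif, GGGTGTGG, was in 3.56% of all promoters and the grainyhead-like motif AACCGGTT in 0.146%. For binding by zinc fingers of the Gata family the letters AGATAA were searched, found in 11.2% of all promoters. The motif of OVOL proteins was read as CCGTTA, found in 2.76%. The core promoter box was read as TATAAA, found in 13.6%. The sequence table held promoters for 4 of the 9 members, and both Tfap2a promoters in it had no match. Matches are descriptions of letters, not of bound sites. The base composition of the member promoters ran between 46.3% and 74.3% GC, against a median of 52.7% over all promoters.

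Summed over the keratin-rich cells, 5 of the 9 factors were lower by at least 1.5-fold under KO and none was higher by that much. The 5 were Grhl3, Trp63, Ovol1, Klf5 and Gata3. Over all 13555 genes with at least 100 UMIs in these cells, 13.8% were at least 1.5-fold lower and 5.37% at least 1.5-fold higher. The factors were chosen with earlier results of these data known, so this is a description and no test of an excess. The median log2 ratio was -0.67 for the 9 factors and 0.000823 for all genes. The remaining 4, Klf4, Tfap2a, Tfap2c and Zfp750, stayed within 1.5-fold in this sum.

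**Figure D1:**
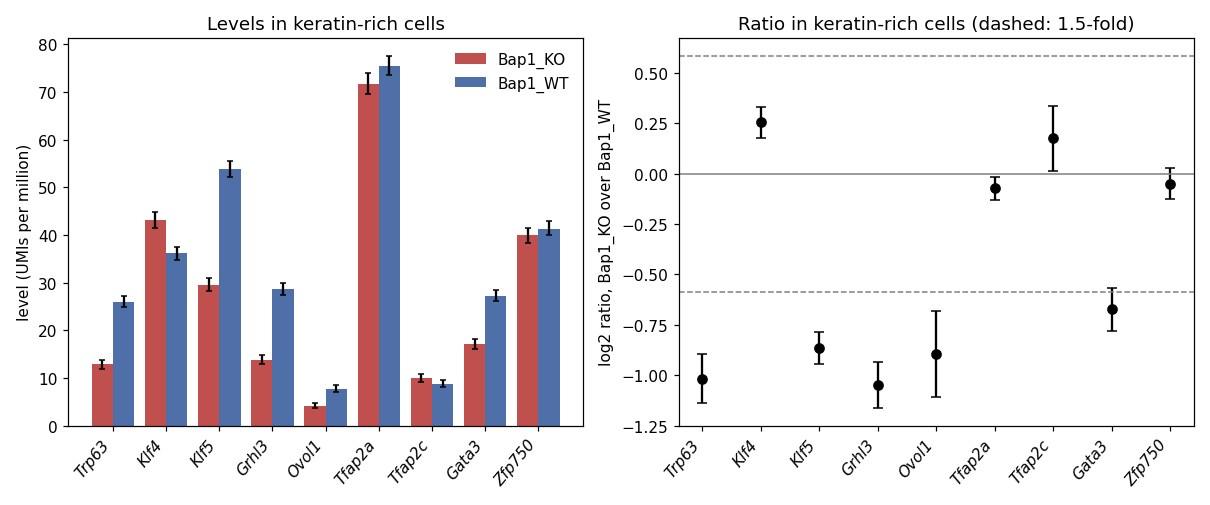
Left, the level of each factor in keratin-rich cells (CPM) for the libraries labelled Bap1_KO (red) and Bap1_WT (blue); right, the log2 ratio of Bap1_KO over Bap1_WT. Error bars are exact 95% intervals for counting error, and 5 points lie below the dashed line for 1.5-fold lower.

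Trp63 was read at 12.9 CPM (802 UMIs) in keratin-rich cells of the library labelled knockout and 26.0 CPM (1935 UMIs) in those of the library labelled wild type. The log2 ratio was -1.02 (-1.14 to -0.90), or 2.02-fold lower. Its gene lies on chromosome 16 at 25683763 to 25892088 of GRCm38, plus strand. Tags at the 3′ end cannot tell the TA and ΔN forms of p63, which differ at the other end of the transcript. The level also followed the cell state in both libraries. Cluster 1, with the contractile genes Acta2 and Cnn1, had 30.2 CPM under KO and 55.2 CPM under WT. The mitotic cluster 4 had 31.5 CPM under KO and 48.6 CPM under WT. In the cornifying cluster 3 it was lowest, at 2.47 CPM under KO and 6.34 CPM under WT. Clusters 1 and 4 had overlapping intervals in both libraries, and so did clusters 0 and 2, with 5.42 and 5.65 CPM under KO and 15.7 and 20.9 CPM under WT. Under KO the level was lower within each of the 5 clusters, with every interval of the ratio below 0. The cluster ratios ran between -1.88 in cluster 2, with 16 UMIs on its wild-type side, and -0.62 in cluster 4.

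The size of the Trp63 difference depended on which clusters entered. Without cluster 2 the log2 ratio was -0.54, under the 1.5-fold limit. Leaving out the contractile cluster 1 gave -1.69, and leaving out any other single cluster gave values of at least 1.5-fold lower. The summed level of 14 cycling markers in keratin-rich cells was 149 CPM under KO and 560 CPM under WT, with 14 of 14 at least 1.5-fold lower. The sum of 9 stress markers was 2987 CPM under KO and 1404 CPM under WT with 5 of 9 higher, and the 8 contractile markers summed to 12936 CPM under KO and 10162 CPM under WT with 3 of 8 higher. Their part in the Trp63 difference was not tested.

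The AP-2 genes differed little between the libraries. Tfap2a (chromosome 13, 40713802 to 40738238, minus strand) was at 71.8 CPM under KO and 75.5 CPM under WT, a log2 ratio of -0.07 (-0.13 to -0.02) from 4471 UMIs under KO and 5609 under WT. By cluster the ratio stayed between -0.17 and 0.11, and the contractile cluster 1 was highest in both libraries, at 105 CPM under KO and 115 CPM under WT. Tfap2c (chromosome 2, 172545678 to 172558622, plus strand) was at 9.97 CPM under KO and 8.83 CPM under WT, a log2 ratio of 0.18 (0.01 to 0.34). With 621 UMIs under KO and 656 under WT, its cluster ratios lay between -0.21 and 0.32, and 1 of 5 intervals lay clear of 0. The intervals bound counting error in this pair of libraries and do not show that the genes were unaffected.

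Gata3, which encodes a zinc finger factor, was lower under KO. It lies on chromosome 2 at 9857078 to 9887953, minus strand. The level was 17.1 CPM (1068 UMIs) under KO and 27.3 CPM (2031 UMIs) under WT, a log2 ratio of -0.67 (-0.78 to -0.57). All 5 clusters were lower, all 5 intervals lay below 0, and the ratios ran between -1.13 in cluster 2 and -0.61 in cluster 3. In the cornifying cluster 3 it reached 22.7 CPM under KO and 34.8 CPM under WT, while in the contractile cluster 1 it had 10.8 CPM under KO and 20.9 CPM under WT. Without cluster 1 the pooled ratio was -0.55, just inside the 1.5-fold limit.

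The 2 Krüppel-like factors went different ways. Klf5 (chromosome 14, 99298691 to 99313412, plus strand) had 29.6 CPM (1842 UMIs) under KO and 53.9 CPM (4002 UMIs) under WT, a log2 ratio of -0.86 (-0.95 to -0.78). Klf4 (chromosome 4, 55527137 to 55532475, minus strand) had 43.1 CPM (2687 UMIs) under KO and 36.2 CPM (2688 UMIs) under WT, a log2 ratio of 0.25 (0.18 to 0.33). Klf5 was lower in all 5 clusters, with 4 intervals below 0, from -1.21 in cluster 2 to -0.39 in cluster 4. It was highest in the cornifying cluster 3, at 56.5 CPM under KO and 95.8 CPM under WT. Klf4 was highest there too, with 76.4 CPM under KO and 51.4 CPM under WT; under KO its interval overlapped that of the mitotic cluster 4, at 66.4 CPM. In clusters 0, 1, 3 and 4 Klf4 was higher under KO, with log2 ratios of 0.59, 0.29, 0.57 and 0.70 and intervals above 0. Cluster 2 was the exception, with 28.9 CPM under KO and 29.97 CPM under WT (log2 -0.05, -0.65 to 0.62). This cluster supplied 742 of the 2687 Klf4 UMIs under KO and 23 of 2688 under WT, and without it the pooled Klf4 ratio was 0.55. Without cluster 0 that ratio was 0.003.

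**Figure D2:**
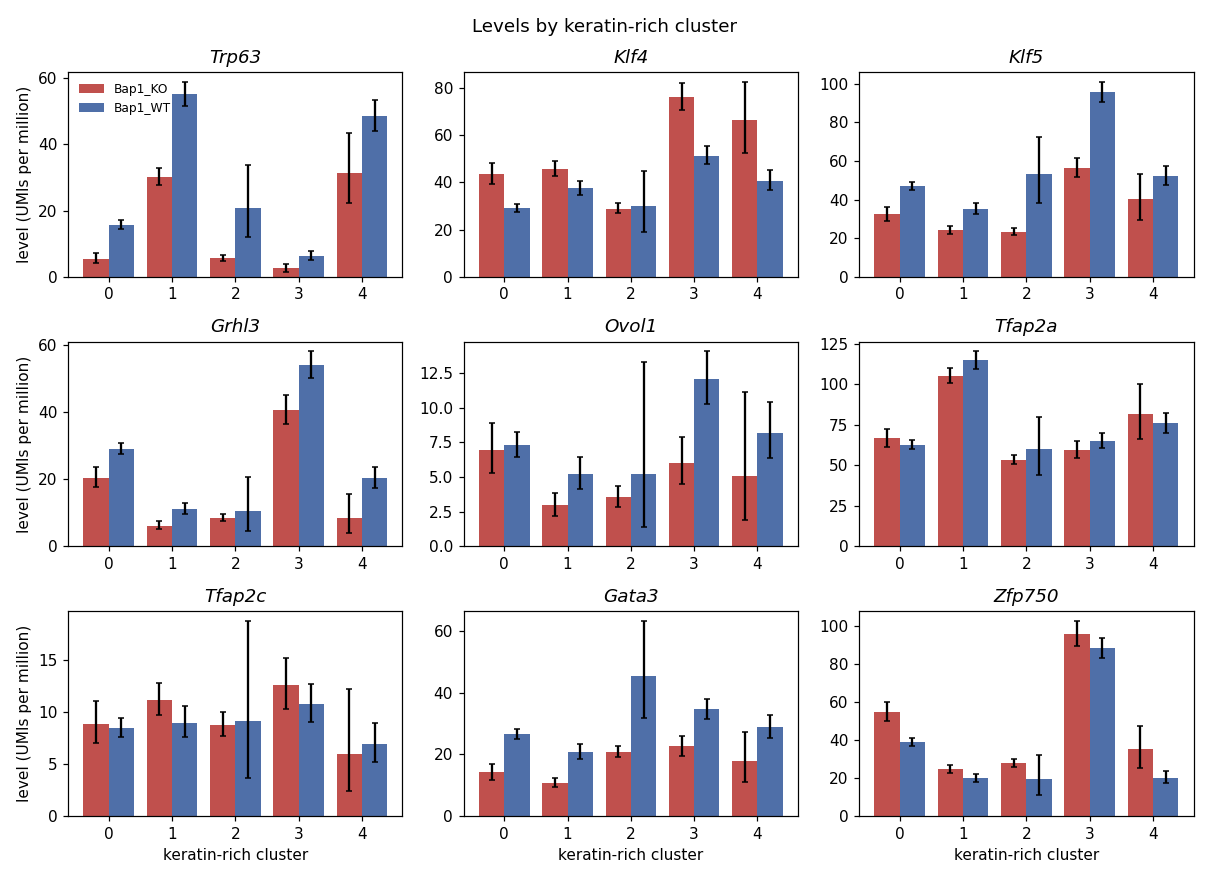
Level of each factor (CPM) in the 5 keratin-rich clusters, with Bap1_KO in red left of Bap1_WT in blue and exact 95% intervals for counting error. Trp63, Klf5, Grhl3, Ovol1 and Gata3 are lower under KO in all 5 clusters, and Zfp750 is higher in all 5; cluster 2 has only 20 wild-type cells and wide intervals.

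Grhl3, the grainyhead-like factor of barrier formation, had the lowest pooled ratio of the group. Its gene is on chromosome 4 at 135541887 to 135573632, minus strand. The level was 13.9 CPM (864 UMIs) under KO and 28.7 CPM (2130 UMIs) under WT, a log2 ratio of -1.05 (-1.16 to -0.93), or 2.07-fold lower. It was highest in the cornifying cluster 3, at 40.6 CPM under KO and 54.1 CPM under WT, where the ratio was -0.42 (-0.60 to -0.23). In cluster 0 it had 20.5 CPM under KO and 29.1 CPM under WT, in the contractile cluster 1 it had 6.18 CPM under KO and 11.2 CPM under WT, and in cluster 2 it had 8.5 CPM under KO and 10.4 CPM under WT. All 5 clusters were lower under KO, 4 with intervals below 0. In 4 of 5 clusters the ratio was smaller in size than the pooled one. With equal weight for each cluster the ratio was -0.57, just inside the 1.5-fold limit. The part of the cluster makeup in the pooled value was not tested.

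Ovol1, a zinc finger repressor, was the least counted factor of the group, with 262 UMIs (4.21 CPM) under KO and 580 UMIs (7.81 CPM) under WT. The log2 ratio was -0.89 (-1.11 to -0.68). The gene lies on chromosome 19 at 5549137 to 5560575, minus strand. Cluster 3 carried the largest difference, with 6.00 CPM under KO and 12.1 CPM under WT (log2 -1.01, -1.49 to -0.54). In cluster 0 it had 6.92 CPM under KO and 7.33 CPM under WT, a ratio whose interval spans 0 (-0.51 to 0.33). All 5 clusters were lower but only 2 intervals lay below 0. Thinning every cell to 8000 UMIs brought the pooled ratio to -0.39. That value rests on a single random draw that left Ovol1 UMIs in 67 cells under KO and 93 under WT. With equal weight for each unthinned cell the ratio was -0.80.

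Zfp750, a zinc finger factor induced in differentiating keratinocytes, differed by cluster in a way its pooled sum did not show. Its pooled level was 40.0 CPM (2490 UMIs) under KO and 41.4 CPM (3075 UMIs) under WT, a log2 ratio of -0.05 (-0.13 to 0.03). Within clusters, however, it was higher under KO in 5 of 5, with 3 intervals above 0. Cluster 0 had 54.8 CPM under KO and 38.8 CPM under WT (log2 0.50, 0.34 to 0.65). Cluster 1 had 24.6 CPM under KO and 19.9 CPM under WT (log2 0.31, 0.09 to 0.52), and the mitotic cluster 4 had 34.9 CPM under KO and 20.2 CPM under WT (log2 0.79, 0.26 to 1.29). The cornifying cluster 3, the highest in both libraries, had 95.7 CPM under KO and 88.2 CPM under WT (log2 0.12, -0.01 to 0.25). With equal weight for each cluster the ratio was 0.35. Cluster 2, which made up 44.9% of the keratin-rich cells under KO, had Zfp750 at 27.7 CPM under KO and 19.5 CPM (15 UMIs) under WT (log2 0.50, -0.23 to 1.35). Zfp750 lies on chromosome 11 at 121510976 to 121519342, minus strand, inside the span of Tbcd on the other strand. Tbcd was at 97.6 CPM under KO and 87.6 CPM under WT (log2 0.16), and since the strand setting of the counting is not given, reads of the pair may not be separated. Trp63, Ovol1, Tfap2a and Gata3 also overlap other annotated genes, of which those present in the tables had at most 53 UMIs in either library.

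The factors were also followed along a keratin score, the summed CPM of Krt5, Krt14, Krt15, Col17a1, Itga6 and Itgb4, which holds none of them. Keratin-rich cells of both libraries were split into 4 bins of equal size at 2421, 4108 and 7016 CPM of the score. The bins are ranges, not cell types, with 226, 339 and 247 cells within 10% of these limits. Krt14 supplied most of the score, and the top bin was not a basal population: cluster 3, with the cornified envelope genes, gave 162 of its 281 cells under KO and 243 of 557 under WT. The lowest bin held 36.1% of the keratin-rich cells under KO, mostly of cluster 2 (453 of 577), and 14.9% under WT. Trp63, Klf5, Grhl3, Ovol1 and Gata3 were lower in all 4 bins with every interval below 0. Grhl3 differed most in the lowest bin, with 9.34 CPM under KO and 25.03 CPM under WT (log2 -1.42), and least in the top bin, with 30.5 CPM under KO and 36.4 CPM under WT (log2 -0.25). Trp63 showed no such ordering, with log2 ratios of -1.06, -0.73, -0.56 and -1.07 from the lowest to the highest bin.

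**Figure D3:**
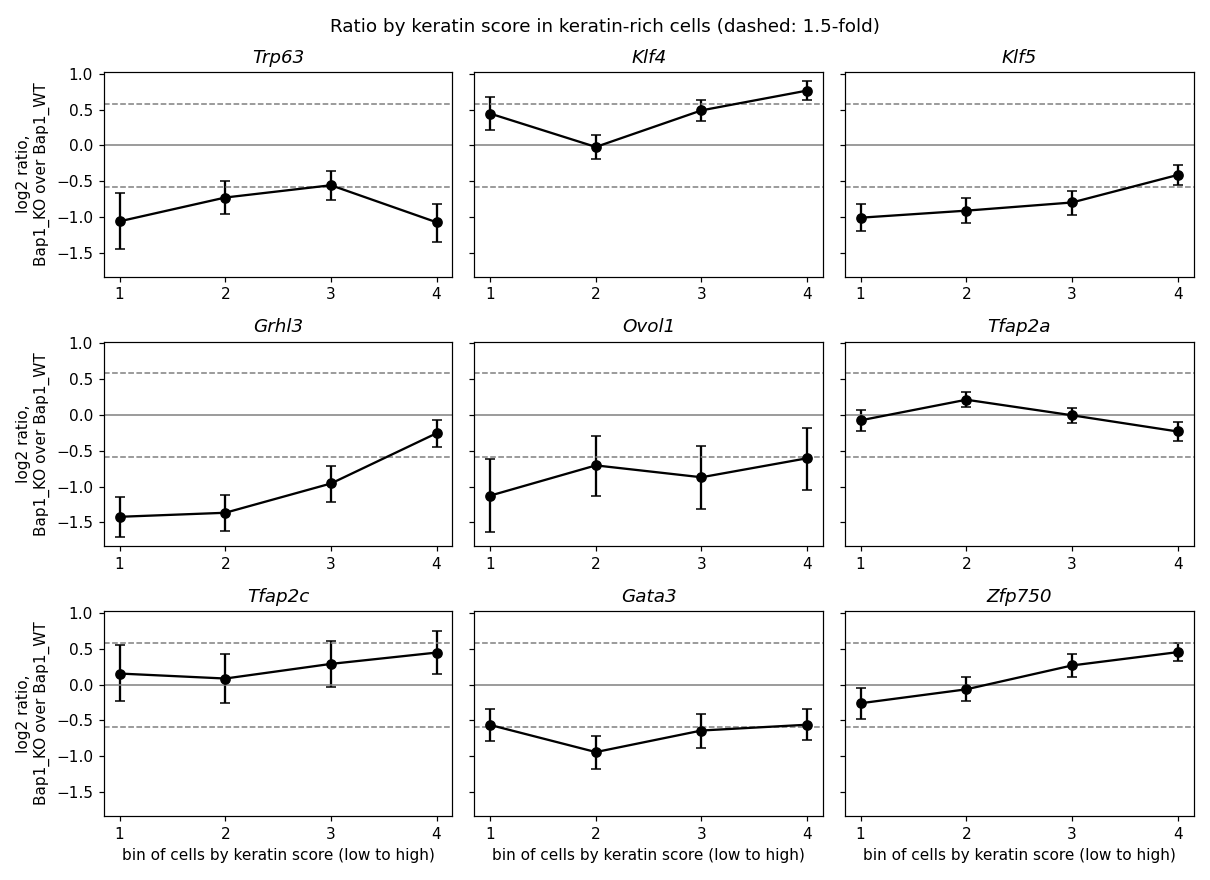
Log2 ratio of Bap1_KO over Bap1_WT for each factor in 4 bins of the keratin-rich cells ordered by keratin score, low to high, with exact 95% intervals for counting error. Grhl3 and Klf5 move toward 0 with the score, Klf4, Tfap2c and Zfp750 are above 0 in the top bin, and the dashed lines mark 1.5-fold.

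Klf4, Zfp750 and Tfap2c were furthest above their level under WT in the top bin of that score. Klf4 had 80.3 CPM there under KO and 47.2 CPM under WT (log2 0.77), and Zfp750 had 82.5 CPM under KO and 60.2 CPM under WT (log2 0.46). Tfap2c had 14.5 CPM under KO and 10.6 CPM under WT (log2 0.45, 0.15 to 0.75). In the lowest bin Klf4 had 30.4 CPM under KO and 22.4 CPM under WT (log2 0.44), while Zfp750 was lower under KO with 24.1 CPM under KO and 28.8 CPM under WT (log2 -0.26). A second score, from 8 early differentiation genes including Krt1, Krt10 and Sbsn, rested on few molecules: its upper limits corresponded to 1.49, 2.79 and 4.88 UMIs in a cell of median depth. On that score the same 5 factors were lower in all 4 bins with every interval below 0. In its top bin Zfp750 had 71.4 CPM under KO and 42.8 CPM under WT (log2 0.74), Klf4 had 70.9 CPM under KO and 46.7 CPM under WT (log2 0.60), and Tfap2c had 12.9 CPM under KO and 9.24 CPM under WT (log2 0.48).

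Cell by cell, Trp63, Klf5, Grhl3 and Gata3 were seen in fewer keratin-rich cells under KO, with intervals apart. Intervals of cell shares, here and for pairs below, take the cells of 1 library as separate draws. Cells are not replicates of a genotype, so these intervals cover no spread between pools of mice. Each cell was thinned to 8000 UMIs so that depth could not set the share, and no cell was shallower than that. Trp63 was then detected in 142 of 1598 cells (8.89%, exact Clopper-Pearson interval 7.54 to 10.4%) under KO and 281 of 1753 (16.0%, 14.3 to 17.8%) under WT. Unthinned, the shares were 24.1% under KO and 45.8% under WT. Klf5 was detected in 18.5% of thinned cells under KO and 31.5% under WT, Grhl3 in 9.26% under KO and 19.2% under WT, and Gata3 in 13.3% under KO and 19.9% under WT. For Ovol1 the shares of 4.19% under KO (3.26 to 5.29%) and 5.31% under WT (4.30 to 6.46%) had overlapping intervals. A draw to 4000 UMIs gave 1.75% under KO (1.17 to 2.52%) and 3.14% under WT (2.37 to 4.06%). Unthinned, the Ovol1 shares were 13.0% under KO (11.4 to 14.8%) and 22.5% under WT (20.5 to 24.5%). Klf4 had shares of 25.3% under KO (23.2 to 27.6%) and 22.3% under WT (20.4 to 24.3%), whose intervals overlapped. Tfap2a (41.2% under KO, 43.5% under WT), Tfap2c (7.45% under KO, 7.93% under WT) and Zfp750 (23.8% under KO, 25.2% under WT) had overlapping intervals as well. A thinned keratin-rich cell carried UMIs of a median of 1 of the 9 factors under KO and 2 under WT, and of none in 20.3% of cells under KO and 11.1% under WT. Among myeloid-like cells, which should lack most of these factors, no factor was seen in 85.0% of 20 cells under KO and 80.6% of 36 cells under WT, at median depths of 16120 UMIs under KO and 19444 under WT before thinning. Trp63 was seen there in 0 of 20 thinned cells under KO (exact interval up to 16.8%) and in 0 of 36 under WT (up to 9.74%). These limits are for cells with a UMI at that depth, not for cells that express the gene.

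Pairs of factors with Trp63 in the same thinned cell were counted as a description of cell state. Trp63 and Grhl3 were found together in 6 of 1598 cells (0.375%, 0.138 to 0.815%) under KO, where the product of their separate shares is 0.823%. Under WT the pair was found in 28 of 1753 cells (1.60%, 1.06 to 2.30%), with a product of 3.07%. In both libraries the interval lies below the product. Trp63 with Klf5 was at 1.13% (0.669 to 1.77%) under KO, an interval that includes the product of 1.64%, and at 3.94% (3.08 to 4.96%) under WT, where the product is 5.05%. Trp63 with Zfp750 was at 1.69% (1.12 to 2.45%) under KO, an interval that includes the product of 2.12%. Under WT that pair was at 2.80% (2.07 to 3.68%), below the product of 4.04%. Trp63 with Gata3, Ovol1, Tfap2a or Tfap2c had intervals that include the product in both libraries. Trp63 with Klf4 was at 3.13% (2.33 to 4.10%) under KO, with a product of 2.25%, and at 3.14% (2.37 to 4.06%) under WT, an interval that includes the product of 3.58%.

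Outside the keratin-rich cells, Tfap2a stood out among the factors. Schwann-like cells, 36 under KO and 59 under WT, had Tfap2a at 110 CPM under KO and 116 CPM under WT, which is 153% (KO) and 154% (WT) of the keratin-rich level of the same library. Melanocyte-like cells, 56 under KO and 22 under WT, had 35.4 CPM (23 UMIs) under KO and 68.8 CPM (18 UMIs) under WT, a log2 ratio of -0.96 whose interval, -1.91 to 0.02, includes 0. AP-2 alpha is known from the neural crest, from which Schwann cells and melanocytes arise. As a yardstick for free RNA, Krt14 in the melanocyte-like, Schwann-like and myeloid-like cells was at 6.3% to 8.5% of its keratin-rich level, and Krt5 at 10.8% to 12.7%. Zfp750 in Schwann-like cells, at 11.5% (2 UMIs) under KO and 11.8% (4 UMIs) under WT, lay within the range of Krt5. It lay above that range in melanocyte-like cells, at 26.9% (7 UMIs) under KO and 18.5% (2 UMIs) under WT. In myeloid-like cells it was at 14.0% (2 UMIs) under KO and 18.5% (6 UMIs) under WT. The part of free RNA in these few counts was not tested. Klf4 in Schwann-like cells was at 20.6 CPM (9 UMIs, 47.8% of the keratin-rich level) under KO and 14.7 CPM (12 UMIs, 40.6%) under WT. In melanocyte-like cells Klf4 had 30.8 CPM (20 UMIs) under KO and 11.5 CPM (3 UMIs) under WT. Klf5 in Schwann-like cells was at 9.16 CPM (4 UMIs) under KO and 23.3 CPM (19 UMIs) under WT. Trp63, Grhl3, Ovol1 and Tfap2c were counted with at most 4 UMIs in any of these classes in either library, Gata3 with at most 3 and Zfp750 with at most 7. In the unnamed cluster 7, led by Crabp1 and Mcpt8 with 5 skeletal muscle and 4 fibroblast markers at 5-fold or more, Klf5 had 3 UMIs in 28 cells under KO and 29 in 42 cells under WT, a log2 ratio of -2.61 (-4.97 to -0.92). Krt14 in this cluster was at 1199 CPM under KO and 1391 CPM under WT, against 4597 CPM (KO) and 5736 CPM (WT) in keratin-rich cells. That is a larger part than in the named classes. The part of keratinocyte RNA in the Klf5 ratio was not tested.

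**Figure D4:**
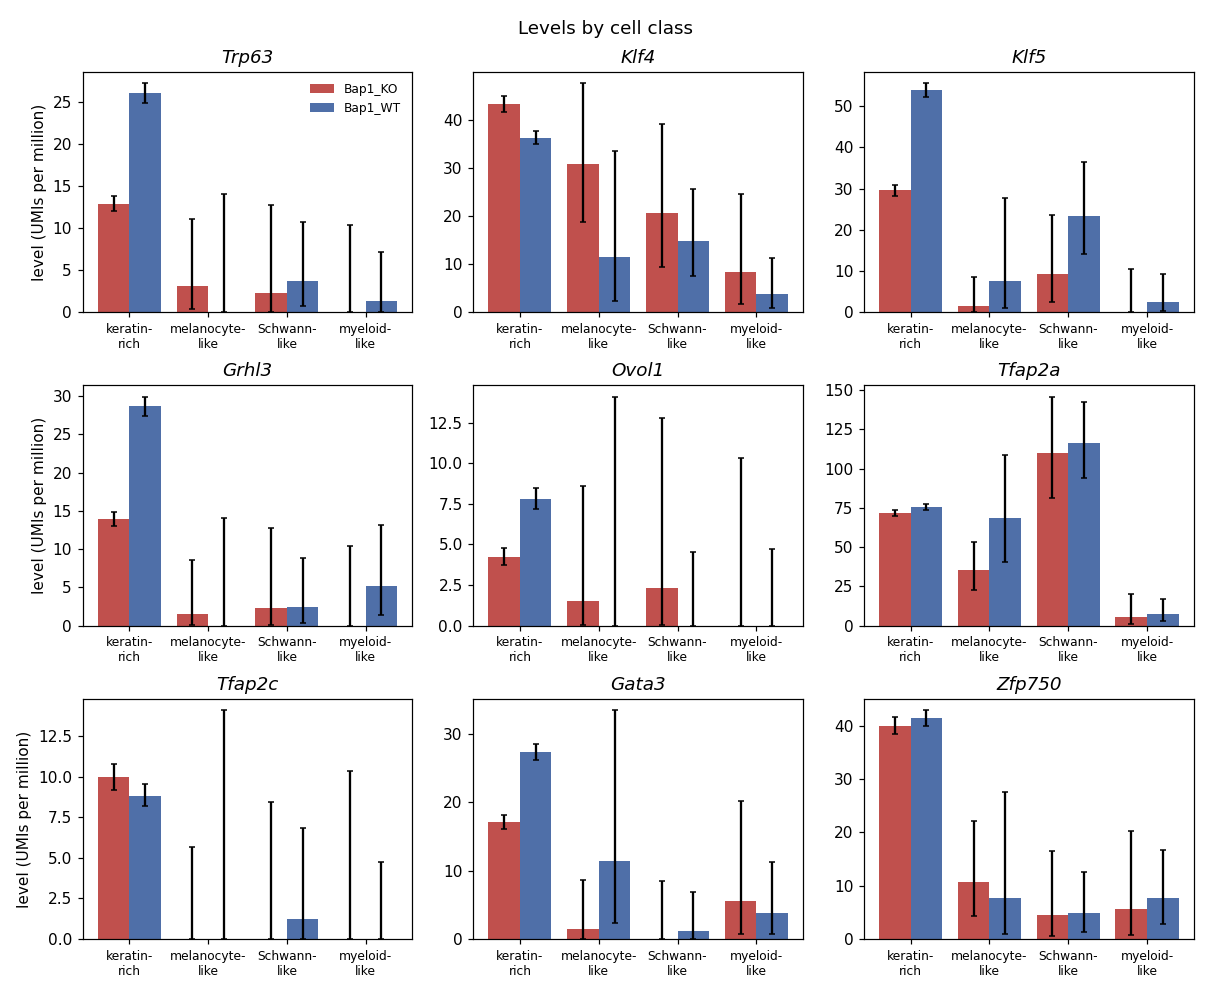
Level of each factor (CPM) in keratin-rich, melanocyte-like, Schwann-like and myeloid-like cells, with Bap1_KO in red left of Bap1_WT in blue and exact 95% intervals for counting error. In Schwann-like cells Tfap2a is at 110 CPM in Bap1_KO and 116 CPM in Bap1_WT, above its keratin-rich level. Trp63, Grhl3, Ovol1 and Tfap2c rest on 4 UMIs or fewer in each melanocyte-like, Schwann-like or myeloid-like bar.

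The patterns of the factors over the 17 cluster-by-library profiles with at least 20 cells were set against those of all genes with at least 200 UMIs. These correlations of log2(CPM + 1) are descriptions over points that share libraries and depth. Grhl3 was most like Dsc2 (r = 0.96), which encodes the desmosomal cadherin desmocollin 2, followed by Fam187b and Ece1. Trp63 was most like Sct (r = 0.93, secretin) and Ankk1 (r = 0.92). For Ovol1 the nearest were Krt73, the desmosome gene Pkp1 and 2310030G06Rik, and for Zfp750 the protease gene Tmprss2, Mir705 and Foxo6. Klf5 was nearest to Cpox (an enzyme of haem synthesis), Tent5b and Gnai1, and Klf4 to Endod1, Erg28 and Krcc1. Tfap2a was nearest to Ttc23, Fstl3 and Add1, Tfap2c to 2200002D01Rik, Hspb1 (a small heat shock protein) and C1qtnf4, and Gata3 to Sidt2, 2610528J11Rik and Ccdc122. Among the members themselves Grhl3 and Zfp750 (r = 0.86) and Grhl3 and Ovol1 (r = 0.86) were the closest pairs. Tfap2a and Gata3 were the least alike (r = 0.19), and Trp63 and Zfp750 stood at r = 0.39.

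Genes that work beside these factors were read in the same keratin-rich cells, from lists chosen with earlier results of these data known. Of 51 other epidermal transcription factors, 45 had at least 100 UMIs, 5 were at least 1.5-fold higher, 9 at least 1.5-fold lower, and the median log2 ratio was -0.13. Over all genes with that many UMIs, 5.37% were higher and 13.8% lower by this limit. Foxn1, the nude locus factor, was at 5.68 CPM under KO and 17.8 CPM under WT (log2 -1.65), and Grhl1 was at 4.14 CPM under KO and 7.95 CPM under WT (log2 -0.94). Higher under KO were Id1, an inhibitor of helix-loop-helix factors (42.0 CPM under KO and 17.6 CPM under WT, log2 1.25), Maf (2.65 CPM under KO and 1.22 CPM under WT, log2 1.11) and Nfix (20.6 CPM under KO and 11.4 CPM under WT, log2 0.85).

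Textbook targets of p63 went in both directions. Of 24 listed, 21 had enough UMIs, 2 were higher, 6 were lower, and the median log2 ratio was -0.20. The shares over all genes with enough UMIs were 5.37% higher and 13.8% lower. Col17a1, the hemidesmosomal collagen XVII of basal cells, was at 9.55 CPM under KO and 32.1 CPM under WT (log2 -1.75). Dst, the hemidesmosomal plakin, was at 42.0 CPM under KO and 77.1 CPM under WT (log2 -0.88). Among the higher targets, the Notch ligand gene Jag1 was at 318 CPM under KO and 195 CPM under WT (log2 0.71).

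Of 40 differentiation and barrier genes, 26 had at least 100 UMIs, with 1 at least 1.5-fold higher, 5 lower and a median log2 ratio of -0.06. Among all genes with that many UMIs, 5.37% were higher and 13.8% lower by this limit. Cers3, the ceramide synthase of barrier lipids, was at 4.38 CPM under KO and 10.6 CPM under WT (log2 -1.28). The tight junction gene Cldn1 was at 125 CPM under KO and 255 CPM under WT (log2 -1.03). Cnfn, which encodes cornifelin, was at 43.1 CPM under KO and 162 CPM under WT (log2 -1.92), and a single cell held 33.6% of its UMIs under KO and 31.4% under WT. Krtdap was higher at 4.67 CPM under KO and 0.646 CPM under WT (log2 2.85), but 1 cell there held 66.7% of its UMIs, and the ratio was 1.85 once the top cells were left out.

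Of 9 genes listed as repressed by OVOL proteins, 7 had at least 100 UMIs, 1 was higher and 1 lower, with a median log2 ratio of -0.19. For this list and the 2 that follow, the shares over all genes were 5.37% higher and 13.8% lower. Snai1, an inducer of mesenchymal transition, was higher at 1.80 CPM (112 UMIs) under KO and 0.632 CPM (47 UMIs) under WT (log2 1.51), while vimentin (Vim) was lower at 14.1 CPM under KO and 22.1 CPM under WT (log2 -0.65). Of 12 measured cofactors and partners, Cited4, a coactivator of AP-2, was the one past 1.5-fold, at 17.1 CPM under KO and 9.85 CPM under WT (log2 0.79), and the list's median was 0.24. None of 7 ubiquitin ligases listed as acting on the factors was 1.5-fold higher or lower, and their median log2 ratio was 0.05.

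**Figure D5:**
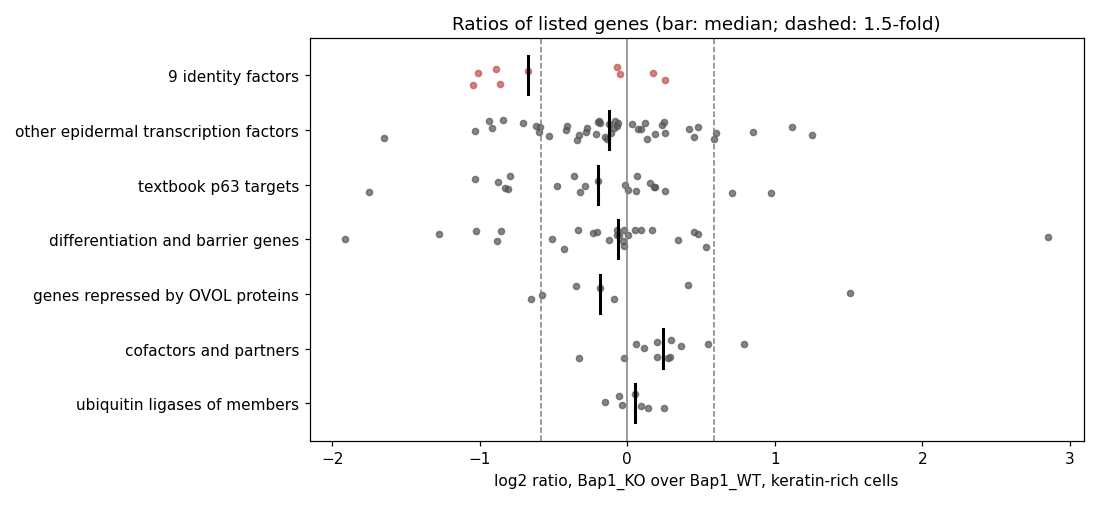
Log2 ratio of Bap1_KO over Bap1_WT in keratin-rich cells for the 9 identity factors (top row) and the listed genes with at least 100 UMIs, one point per gene, with the median of each list as a bar and 1.5-fold as dashed lines. The median of the 9 factors is -0.67, and those of the other lists lie between -0.20 and 0.24.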

How the data were processed

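Single-cell RNA of epidermal cells was measured in 2 libraries, 1 per genotype, with the 10x Genomics Chromium 3′ kit v2 (per the labels' protocols). The submitters' processing notes name mm10, Cell Ranger 2.1 and Seurat 2.0 without their roles. The authors deposited 1 table of UMI counts per library, genes by cells, with no normalization. The strand setting, cell calling and doublet removal are not stated in the sources used.

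The RefSeq table of GRCm38.p6 gave symbols for 31049 of the 36528 identifiers, and the others, with 2.67% of UMIs, stayed in the totals. Cells needed at least 500 genes and at most 10% mitochondrial UMIs, which removed 16 cells under KO and 13 under WT. Scrublet, with an assumed rate of 0.02, marked 7 cells (0.398%) under KO and 1 (0.0519%) under WT, which were left out (1 cell under KO met both criteria). A total of 1738 cells remained under KO and 1912 under WT. Both libraries were clustered together without integration (10000 scaled counts, 2000 variable genes, 30 components, 15 neighbours, Leiden resolution 0.5). Melanocyte-like, Schwann-like and myeloid-like names needed 3 or more markers 5-fold over the mean of the other clusters, and more than any other set had. Cluster 7, led by skeletal muscle markers with fibroblast markers beside them, stayed unnamed. Names are rebuilt and may differ from the study's. Clusters led by keratinocyte, contractile, stress or cycling markers, or by none, were joined as keratin-rich.

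UMIs of a class were added up in each library and scaled to CPM, which is not corrected for gene length, so levels are not compared between genes. Levels have exact Poisson and ratios conditional exact 95% intervals. With 1 library per genotype nothing was tested. Counts use 1.5-fold, at least 100 UMIs and, for 0 UMIs, a floor of 3. The members, lists and motifs were chosen with earlier results of these data known. Named genes are the 9 members, Bap1, of each list the 3 highest and 3 lowest past 1.5-fold, and for each member the 3 most alike genes. Some genes that this rule names are not reported here. Cluster leaders and score genes serve as identification. Ratios were tested on simulated counts. Alternatives were other cell filters, a common UMI minimum, doublets kept, Leiden resolutions 0.3 and 1, listed factors left out of the variable genes, other weights, centring, TMM scaling, leaving out top cells or single clusters, thinning, and other folds and UMI minimums. Equal weight for each bin of the keratin score was added after seeing the data. Overlaps and strands came from GENCODE vM21, promoters from RefSeq. The tools were scipy 1.17.1, scanpy 1.11.5, leidenalg 0.10.2, scikit-learn 1.9.0, pandas 2.3.3, anndata 0.12.19, matplotlib 3.10.9 and numpy 2.4.6 under Python 3.11.15.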

Additional observations from a re-analysis of the deposited data

Results flagged for a closer look

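Zfp750 and Tfap2a had log2 ratios of opposite sign, with intervals clear of 0, in different bins of the keratin-rich cells. The difference between bins was not tested, and each bin holds 1 library per genotype.

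On the keratin score, Zfp750 was higher under KO in the top bin (log2 0.46, with 82.5 CPM under KO and 60.2 CPM under WT) and lower in the lowest bin (log2 -0.26, with 24.1 CPM under KO and 28.8 CPM under WT). On the sparse early differentiation score it was higher in the top bin (log2 0.74) and lower in the second (log2 -0.33, with 33.8 CPM under KO and 42.5 CPM under WT). Cluster 2 supplied 453 of the 577 cells of the lowest keratin-score bin under KO. Within every cluster Zfp750 was higher under KO, but only 3 of 5 intervals lay above 0. Cluster 2 had 15 UMIs of it on its wild-type side (log2 0.50, -0.23 to 1.35). The part of the cluster makeup in the reversal was not tested.

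Tfap2a was higher under KO in the second bin of the keratin score (log2 0.21, with 84.9 CPM under KO and 73.2 CPM under WT) and lower in the top bin (log2 -0.23, with 65.9 CPM under KO and 77.3 CPM under WT). Both values are within 1.5-fold.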

How the results depend on the processing

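Each of the 9 log2 ratios was recomputed under 20 other settings. Of the 180 values, 141 stayed within the counting interval of the reported ratio and 39 moved beyond it. Trp63 lay between -1.69 and -0.54, Grhl3 between -1.26 and -0.57, Ovol1 between -1.13 and -0.39, Klf5 between -1.05 and -0.66, Gata3 between -0.90 and -0.55, and Klf4 between 0.003 and 0.55. Zfp750 (-0.22 to 0.35), Tfap2a (-0.27 to 0.16) and Tfap2c (-0.06 to 0.29) had values on both sides of 0. The 1.5-fold call was lost for Trp63 without cluster 2 (-0.54), for Gata3 without cluster 1 (-0.55) and for Grhl3 with equal cluster weights (-0.57). It was also lost for Ovol1 after thinning to 8000 UMIs (-0.39), in a single random draw. The cause of these losses was not tested.

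At 2-fold, 2 members were lower, and over all genes 1.90% were higher and 6.66% lower. At that limit the other epidermal transcription factors gave 2 higher and 2 lower, p63 targets 0 higher and 2 lower, differentiation and barrier genes 3 lower, genes repressed by OVOL proteins 0 lower, and cofactors 0 higher. With a minimum of 20 UMIs, differentiation and barrier genes gave 2 higher, and over all genes 7.74% were higher. No paired analysis was possible because each genotype has 1 library. Depth limits Ovol1, Tfap2c and all members outside the keratin-rich cells.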
